A study of Mus musculus with 16 samples.

Results

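The complement system was represented by 30 genes, chosen by name, of the 21959 genes listed for each tumor. They were grouped by the cells that are best known to make them: 17 liver-secreted members (C2, C3, C4b, C6, C8a, C8b, C8g, C9, Hc, Cfb, Cfi, C4bp, Masp1, Masp2, Mbl1, Mbl2 and Vtn), 6 myeloid members (C1qa, C1qb, C1qc, Cfp, C3ar1 and C5ar1) and 7 stromal and widely expressed members (C1ra, C1s1, C7, Cfd, Clu, Cd55 and Cd59a). Complement is a cascade of plasma proteins that is started by C1q bound to antibody or dying cells, by mannose-binding lectins bound to sugars, or by spontaneous turnover of C3. All 3 routes lead to cleavage of C3 and C5, which yields the fragments C3a and C5a that attract myeloid cells, and to assembly of C5b to C9 into a pore in the target membrane. Hepatocytes are the main source of the plasma proteins, whereas C1q comes from macrophages, C1r and C1s also from fibroblasts, and the receptors for C3a and C5a sit on myeloid cells.

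RNA was sequenced from tumor tissue of 16 male wild-type C57BL/6 mice with liver metastases of MC38, a mouse colon carcinoma cell line. The cells were injected into the hemispleen when the mice were 6 weeks old, which is the only age given. Each group held 4 mice: control, SB525334 (an inhibitor of the type I TGF-β receptor, 20 mg/kg daily by oral gavage), KN046 (a bispecific antibody against PD-L1 and CTLA-4, 10 mg/kg intraperitoneally 2 times a week) and the combination of both drugs. MC38 cells came from a single line, and the mice carried no transgene. Levels are given as CPM, a gene's count divided by the effective library size (TMM scaling, which also corrects for library composition), and tests are edgeR's quasi-likelihood test over all genes with Benjamini-Hochberg adjustment and a threshold of 0.05.

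Total counts lay between 18368994 and 23877131 per mouse. Control mice 1 and 2, and control mice 3 and 4, were far more alike than any other pair within a group (median chi-square between their counts 1.25 and 0.956, against 2.82 to 18.7), and the tests count them as 4 separate mice. Whether each pair came from the same tumor is not labelled; if so, the control group held 2 independent samples, and its SDs and the p-values against control are too small. Among the 28 members tested, the gap between the means of the 2 control pairs was 2.95-fold for C6 and 2.21-fold for Cd55, both higher in mice 1 and 2. It was at most 1.95-fold for the others. How many of all genes differed between the pairs is not given here, so these gaps are not read as a trait of the members. In the KN046 group, mouse 1 was the lowest of the 4 mice for 16 of 17 liver-secreted and 6 of 6 myeloid members, and mouse 2 was the highest for 12 and 6 of them. In the SB525334 group, mouse 4 was the lowest for 12 of the 17 liver-secreted members. How often these mice were the lowest or highest of their group over all genes is not given here, so this order is not read as a trait of the members.

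The regulatory sequence of 5 members is shown because the members split by response and by cell source. A promoter window, running from 250 bases before to 50 bases after a start site, was listed by RefSeq (GRCm38.p6) for 23 of the 30 members, with 25 windows in all. The 250 bases before the start are printed 5′ to 3′ on the gene's own strand, which is the minus strand for all 5 genes, and the capitals mark motif matches. C8a (chr4:104876399-104876648), Hc (chr2:35061413-35061662) and C4bp (chr1:130661619-130661868) hold GTTAAT, part of the site of the hepatocyte factor HNF1, and C8a also holds a STAT motif, TTCNNNGAA. C3 (chr17:57228137-57228386) holds TTNNGCAA, a motif of the C/EBP factors of the acute-phase response, and C1qc (chr4:136892915-136893164) holds GAGGAAGT, a motif of the myeloid factor PU.1. Matches were counted on both strands, so ATTAAC, TTGCGAAA and ACTTCCTC are the same motifs read in reverse.
C8a: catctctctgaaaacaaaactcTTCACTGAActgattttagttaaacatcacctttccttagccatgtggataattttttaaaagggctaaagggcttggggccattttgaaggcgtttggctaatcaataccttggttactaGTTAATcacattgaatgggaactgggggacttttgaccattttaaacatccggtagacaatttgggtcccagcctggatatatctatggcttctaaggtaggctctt
Hc: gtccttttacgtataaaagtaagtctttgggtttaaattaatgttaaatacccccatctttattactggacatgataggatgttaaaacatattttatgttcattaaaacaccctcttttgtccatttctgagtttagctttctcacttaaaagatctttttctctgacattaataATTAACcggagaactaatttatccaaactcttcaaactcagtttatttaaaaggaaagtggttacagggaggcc
C4bp: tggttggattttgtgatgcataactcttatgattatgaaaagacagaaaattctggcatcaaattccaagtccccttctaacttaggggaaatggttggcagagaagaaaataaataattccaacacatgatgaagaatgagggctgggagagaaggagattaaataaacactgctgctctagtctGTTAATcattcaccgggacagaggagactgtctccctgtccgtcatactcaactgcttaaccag
C3: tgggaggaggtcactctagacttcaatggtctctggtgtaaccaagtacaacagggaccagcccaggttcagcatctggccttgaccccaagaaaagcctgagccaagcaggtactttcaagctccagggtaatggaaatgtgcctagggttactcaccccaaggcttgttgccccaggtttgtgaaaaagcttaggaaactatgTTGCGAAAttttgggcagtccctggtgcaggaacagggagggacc
C1qc: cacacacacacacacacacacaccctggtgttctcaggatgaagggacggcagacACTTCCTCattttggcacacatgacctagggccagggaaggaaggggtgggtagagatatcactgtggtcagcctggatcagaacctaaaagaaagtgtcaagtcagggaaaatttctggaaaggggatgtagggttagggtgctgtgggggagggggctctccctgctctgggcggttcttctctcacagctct

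GTTAAT was found in 5 of the 12 liver-secreted members with a window (C4bp, C8a, C8b, Hc and Vtn), in 1 of 5 myeloid members (Cfp) and in 3 of 6 stromal and widely expressed members (C1ra, C7 and Cd55), and in 7.1% of all 32851 windows. TTNNGCAA occurred in C3, C9, C1ra and C1s1 and in 10.8% of all windows. TTCNNNGAA occurred in C8a, Masp2, Vtn, C1ra and C7 and in 8.3% of all windows. GAGGAAGT occurred in C1qc alone and in 3.2% of all windows, and CAAAGTCC, a motif of the hepatocyte factor HNF4, occurred in no member window and in 1.42% of all windows. The matches describe these letters and not binding, and the members with GTTAAT included genes that lost nearly all of their RNA with the combination (C8a, C8b, C4bp and Hc) and genes that did not (C1ra and Cd55).

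In control tumors the members differed widely in level. Per kilobase of the canonical transcript, the highest was C3, the hub of the cascade, with 391 CPM per kb. It was followed by Clu, the fluid-phase inhibitor clusterin, with 325 CPM per kb, by Vtn, the matrix and plasma protein vitronectin, with 250.1, and by C1qa with 206. C2, Cfb, C7 and Cfd were the lowest, with 0.787, 0.159, 0.107 and 0.0270 CPM per kb. Of the 30 members, 26 had at least 100 counts in every control mouse. C7, a pore subunit, had 3 to 12 counts in control mice and at most 3 with SB525334 and the combination, and Cfd, the protease factor D, had 0 to 2 counts in controls and 0 in all treated mice. Neither passed the filter on low counts, and neither was tested. In adipose tissue Cfd is an abundant transcript. Of the 5 adipocyte markers, Plin1 and Lep had 0 counts, Adipoq 0 to 2 counts and Cidec 9 to 13 counts in control mice. Plin4 was at 15.98 to 23.27 CPM. Cidec had 17 to 267 counts with KN046, where edgeR called it higher than control, and 0 with the combination, where it was called lower. The 267 counts were those of KN046 mouse 1, against 17 to 55 in the other KN046 mice. The KN046 call was lost with each control pair merged into 1 sample, where 0 of all 14241 genes tested were called.

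The values of Cfb and C2 need a limit of their own. Cfb, the protease of the alternative route, had 5 to 16 counts in control mice, and C2, the protease of the classical and lectin routes, had 33 to 56. The annotation places a further gene model, Gm20547, on the same strand, where it shares 65.7% of the exon bases of Cfb and 38.4% of those of C2, and that model had 0 counts in every mouse. How reads that lie on both gene models were counted is not given in the sources used here, so the levels of C2 and Cfb are uncertain. Genes on the opposite strand share exon bases with Masp2 (Tardbp, 60.3%), Cfb (Nelfe, 49.8%), Mbl1 (Sftpd, 15.1%) and C8g (Fbxw5, 12.3%), and whether the counting used strand is not given either. C4b has a near-identical copy, C4a, which was not analysed here. The near copies C1rb, C1s2, Cd55b and Cd59b had at most 3, 10, 3 and 12 counts in any mouse and were not tested.

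Summed over the 30 members, complement RNA took 4716 to 5127 CPM in control tumors, 1181 to 1718 with SB525334, 1857 to 5288 with KN046 and 1024 to 1311 with the combination. Most of that difference lay in the liver-secreted members. Their sum was 3504 ± 216 CPM in control mice, 388 ± 84.5 in SB525334 mice, 2380 ± 1026 in KN046 mice and 184 ± 56.4 in combination mice (mean ± SD, n = 4 mice each). Both groups that received SB525334 lay entirely below the other 2 groups. The myeloid members summed to 678 ± 40.2, 764 ± 133, 509 ± 168 and 750 ± 70.4 CPM in the same order, and all of those ranges met. C3 alone made up 40.6% of the summed member CPM in control tumors and 11.5% with the combination, where the C1q chains C1qa, C1qb and C1qc took 21.8%, 18.1% and 14.6%.

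**Figure D1:**
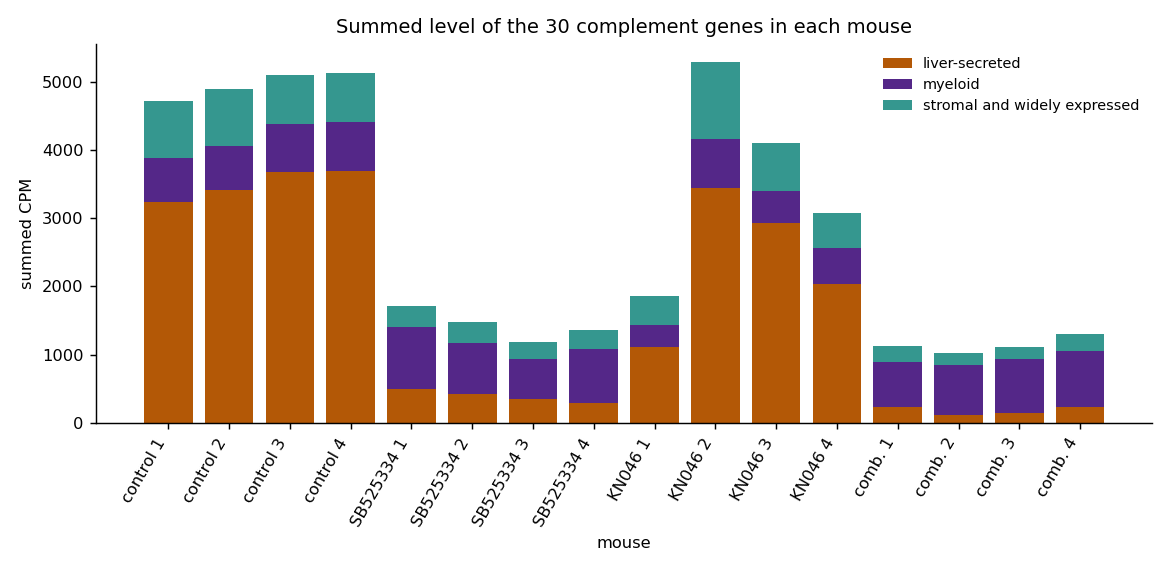
Summed CPM of the 30 complement genes in each of the 16 mice, stacked by group of genes (liver-secreted, myeloid, stromal and widely expressed). The orange liver-secreted part falls from 3243 to 3686 CPM in control mice to 123 to 234 CPM with the combination, while the purple myeloid part stays between 322 and 918 CPM in all mice.

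With SB525334 alone, 19 of the 28 members tested were lower than in control mice and 0 were higher (in the same comparison 9.22% of the 13968 genes tested were lower and 0.394% higher). The lowered members were 15 of 17 liver-secreted, 0 of 6 myeloid and 4 of 5 stromal and widely expressed members tested. The median log2 fold change was -3.63 over the liver-secreted members, 0.22 over the myeloid members, -1.18 over the stromal and widely expressed members and 0.001 over all genes tested. In bulk tissue, fewer cells of a type and less RNA per cell cannot be told apart. The 14 hepatocyte markers measured, from Alb to Cyp2e1, were all lowered too, to between 4.66% and 12.3% of control with a median of 7.82%. Of the 17 liver-secreted members, 11 lay inside that range, 1 (C6) below it, and 5 (C2, C4b, C8g, Cfb and Masp1) above it. The part of hepatocyte content in the fall of the members was not tested.

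The initiating genes of the lectin route were among those lowered. Mbl2, a mannose-binding lectin made in liver, had 48.3, 48.4, 71.7 and 73.8 CPM in control mice 1 to 4, and 4.11, 6.45, 1.68 and 0.560 with SB525334. The groups did not overlap, and the log2 change was -4.23 with a standard error of 0.51 (adjusted p = 1.02e-05 from edgeR). Mbl1, its homologue, fell by 3.85 on the log2 scale, and Masp2, the protease that cleaves C4 and C2 for the lectins, fell by 3.40. Masp1, the protease that activates MASP2, fell less. It had 31.4, 33.8, 34.4 and 32.9 CPM in control mice and 10.2, 9.79, 6.84 and 9.22 with SB525334, a log2 change of -1.88 with a standard error of 0.38 (adjusted p = 0.00203 from edgeR).

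The central components fell as well. C3 (chromosome 17, 57510964 to 57535155, minus strand, GRCm39) had 1906, 2010.4, 2075 and 2065 CPM in control mice and 311, 236, 208 and 221 with SB525334, which is 12.1% of control. Its log2 change was -3.05 with a standard error of 0.30 (adjusted p = 1.41e-06 from edgeR). C4b, the C4 of the classical and lectin routes, had 347, 375, 395 and 401 CPM in control mice and 56.1, 44.2, 52.9 and 40.8 with SB525334, a log2 change of -2.97 with a standard error of 0.33 (adjusted p = 5.03e-06). For both genes the 4 SB525334 mice lay close together and far below every control mouse. C2 had 2.45, 2.37, 1.67 and 1.88 CPM against 0.407, 1.19, 1.25 and 1.25, which did not pass the test (log2 fold change -1.02, adjusted p = 0.0984 from edgeR), and Cfb did not either (log2 fold change -1.60, adjusted p = 0.286 from edgeR), at 0 to 10 counts a mouse with SB525334.

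The terminal components, which build the pore, fell together. Hc, the gene of C5 (chromosome 2, 34873343 to 34951453, GRCm39), had 104, 111, 104 and 111 CPM in control mice and 7.87, 8.997, 5.47 and 0.905 with SB525334, a log2 change of -4.21 with a standard error of 0.47 (adjusted p = 4.62e-06 from edgeR). The control values were tight, and SB525334 mouse 4 was well below the other 3 treated mice. C8a and C8b, neighbouring genes on chromosome 4 (104672876 to 104733614 and 104623328 to 104662573), fell by 4.08 and 4.05 on the log2 scale, C6 fell by 4.43 and C9 fell by 3.96. C8g, which encodes the third chain of C8, fell by 2.11. C8g had 13.8, 13.9, 14.3 and 13.2 CPM in control mice and 3.07, 4.54, 3.23 and 1.94 with SB525334, so it kept 23.2% of its control level where C8a kept 5.90% and C8b 6.03%. Fbxw5, whose exons overlap those of C8g on the opposite strand, had 809 to 1350 counts in every mouse, and its part in the C8g count was not tested.

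The plasma regulators were lowered too. Cfi, the protease factor I that inactivates C3b and C4b, fell by 3.63 on the log2 scale, C4bp, its cofactor C4b-binding protein, fell by 3.65, and Vtn, which blocks insertion of the pore, fell by 3.41. Clu, with the same kind of role, had 649, 662, 522 and 529 CPM in control mice and 203, 210.4, 162 and 192 with SB525334, a log2 change of -1.62 with a standard error of 0.27 (adjusted p = 3.49e-04 from edgeR). Cd59a, the membrane inhibitor of the pore, had 5.86, 6.06, 7.15 and 7.11 CPM against 1.08, 1.39, 1.20 and 1.29, a log2 change of -2.39 with a standard error of 0.35 (adjusted p = 9.74e-05 from edgeR). None of these genes overlapped between the 2 groups. Cd55, the membrane decay-accelerating factor, had 19.4, 18.1, 8.62 and 8.36 CPM in control mice and 12.5, 5.69, 5.90 and 5.60 with SB525334 and did not pass (adjusted p = 0.277 from edgeR), with the control pairs apart from each other.

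C1r and C1s, the proteases of the C1 complex, changed least among the lowered members. C1ra had 71.9, 78.1, 91.4 and 93.9 CPM in control mice and 41.1, 41.0, 31.9 and 34.3 with SB525334, a log2 change of -1.18 with a standard error of 0.15 (adjusted p = 1.93e-05 from edgeR). C1s1, its neighbour on chromosome 6, had 82.9, 78.0, 85.8 and 83.4 CPM against 51.1, 54.6, 37.3 and 40.3, a log2 change of -0.85 with a standard error of 0.18 (adjusted p = 0.00286). Fibroblast markers, 10 genes from Col1a1 to Fap, were called in neither direction with SB525334 (3 at an unadjusted p under 0.05 from edgeR, 0 by DESeq2). Their median log2 fold change was 0.28, and their summed level was 9854 to 15570 CPM against 10340 to 11140 CPM in control mice. Col3a1 alone took 36.9% to 55.6% of that sum. With the combination 2 of the 10 were called lower than control (Col1a2 and Lum) and 0 higher, with 7 at an unadjusted p under 0.05 from edgeR and a median log2 fold change of 0.296.

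**Figure D2:**
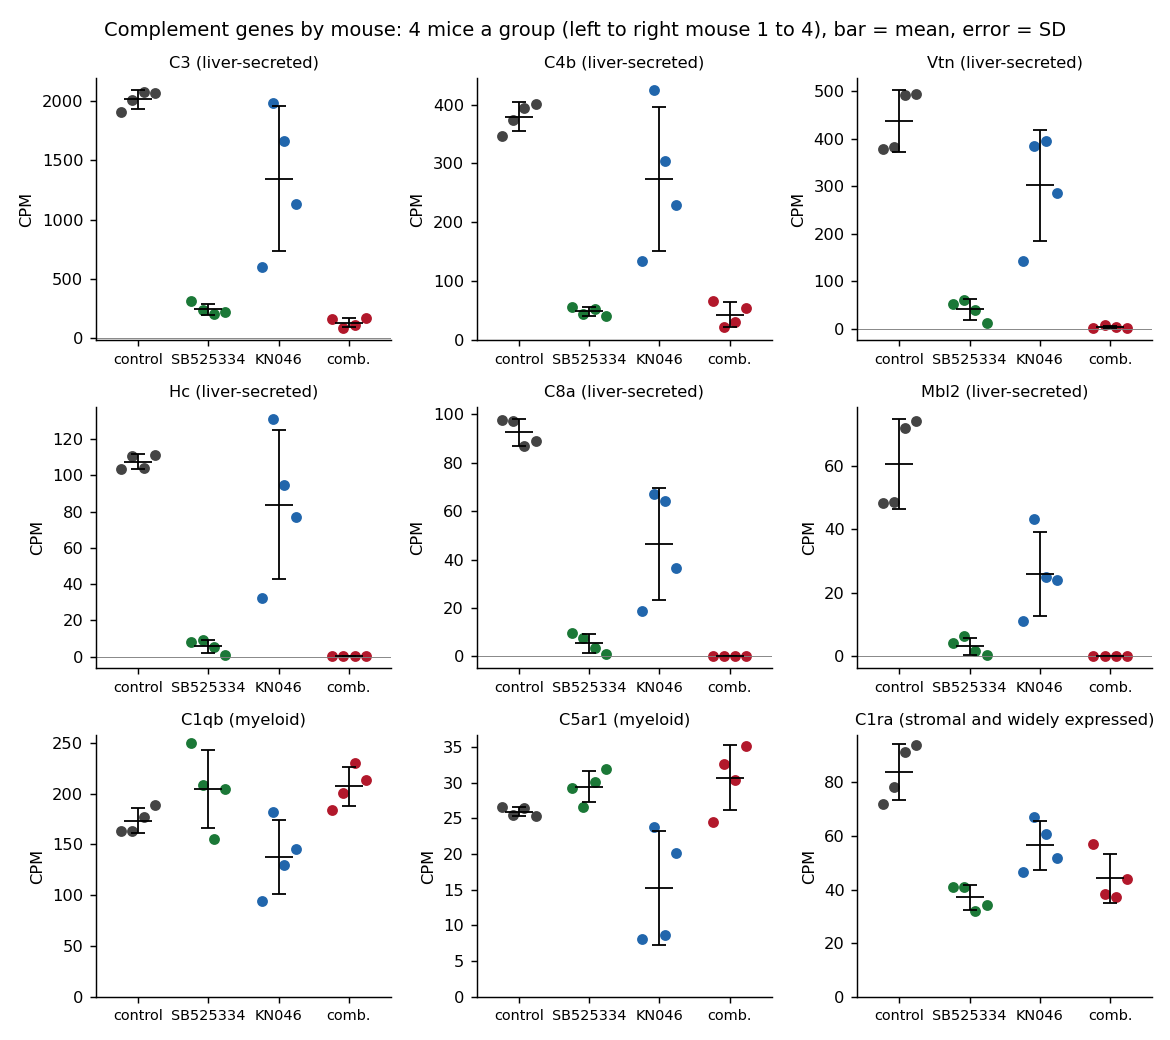
CPM (y axis, linear, from 0) of 9 complement genes in the 4 groups (x axis); each point is 1 mouse, the long bar is the mean and the error bars are the SD of 4 mice. C3, C4b, Vtn, Hc, C8a and Mbl2 are low in every SB525334 and combination mouse and spread widely in the KN046 group, whereas C1qb and C5ar1 are lowest in the KN046 group and C1ra is highest in control mice.

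With KN046 alone, 1 of the 28 members tested, C1ra, was lower than in control mice and 0 were higher (2.40% of all genes tested were lower and 1.60% higher). C1ra had 46.5, 67.2, 60.6 and 51.7 CPM with KN046, all below the control mice, with a log2 change of -0.57 with a standard error of 0.15 (adjusted p = 0.0441 from edgeR). That call was lost when any of 7 of the 8 mice was left out (all but KN046 mouse 2, adjusted p up to 0.144 from edgeR), and with the control pairs merged (adjusted p = 0.248). In the merged fit 0 of all 14241 genes tested were called lower with KN046 and 0 higher. The median log2 fold change was -0.58 over the liver-secreted members and -0.46 over the myeloid members, against -0.026 over all genes tested. The 2 lectin genes had the lowest values, with log2 fold changes of -1.28 for Mbl1 (adjusted p = 0.0812) and -1.22 for Mbl2 (adjusted p = 0.112). Every KN046 mouse lay below every control mouse for both, as for C8a, C8g, C5ar1 and C1ra. Of these genes only C1ra passed the test. How many of all genes separated in this way is not given here, so the separation is not read as a trait of the members. Masp1 had the opposite sign, with 32.1, 49.8, 55.3 and 36.7 CPM and a log2 fold change of 0.39 (adjusted p = 0.542).

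Values within the KN046 group spread widely. C3 had 599, 1988, 1666 and 1134 CPM in KN046 mice 1 to 4, and Hc had 32.4, 131, 94.4 and 77.0, so that mouse 1 lay far below control mice and mouse 2 near or above them. Without mouse 2, 10 members were lower with KN046 than in control mice, where 8.34% of all genes tested were lower: C1qa, C1qb, C1qc, Cfp, C3ar1, C5ar1, C1ra, Cd59a, Mbl1 and Mbl2. In that fit the log2 fold change was -1.06 for C5ar1 (adjusted p = 0.0104 from edgeR) and -0.87 for Cfp (adjusted p = 0.00452). Without mouse 1, 0 members and 0.0781% of all genes tested were lower. The hepatocyte markers summed to 9017 CPM in mouse 1 and 17290 CPM in mouse 2, and the 10 macrophage markers to 791 and 1487 CPM.

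With the combination, 20 of the 28 members tested were lower than in control mice and 0 were higher (9.74% of all genes tested were lower and 1.37% higher). The lowered members were 16 of 17 liver-secreted, 0 of 6 myeloid and 4 of 5 stromal and widely expressed members, and the liver-secreted member that did not pass was Cfb (log2 fold change -1.52, adjusted p = 0.281 from edgeR). The median log2 fold change was -7.17 over the liver-secreted members, 0.21 over the myeloid members and 0.013 over all genes tested. For 5 liver-secreted members no combination mouse had more than 3 counts, so their fitted values are no bound, and with these 5 set to a bound computed against 3 counts in each mouse the liver-secreted median was -7.09. By that bound C4bp was at least 609-fold lower than in control mice, C8a at least 593-fold, Mbl2 at least 388-fold, C8b at least 196-fold and Mbl1, with 0 counts in all 4 mice, at least 136-fold lower. These bounds cover counting error only.

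With the combination the liver-secreted members spread widely. Cfi had 98.4, 107, 143 and 146 CPM in control mice and 0.0513, 0.276, 0.164 and 0 with the combination, or 0.0991% of control (adjusted p = 7.33e-10 from edgeR). Hc had 0.308, 0.386, 0.164 and 0.0943 CPM, or 0.222% of control, and C9 had 0.103, 0.276, 0.273 and 0.330 CPM, or 0.395% of control. Vtn had 2.46, 7.01, 3.71 and 2.26 CPM, which is 0.882% of control, and Masp1 had 0.462, 3.81, 1.47 and 0.283 CPM, or 4.55%. At the other end C3 had 159.8, 86.9, 111 and 169 CPM, or 6.54% of control, C4b had 66.7, 21.4, 29.6 and 53.9 CPM, or 11.3%, C8g had 2.93, 2.04, 2.13 and 1.65 CPM, or 15.9%, and C2 had 0.462, 0.497, 0.273 and 0.754 CPM, or 23.7%. All of these genes had every combination mouse below every control mouse.

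The 14 hepatocyte markers fell to between 0.0789% and 0.248% of control with the combination, with a median of 0.118%, and their summed level from 14470 to 16350 CPM in control mice to 13.4 to 21.9 CPM. Of the liver-secreted members, 2 (Hc and Cfi) lay inside that range, 10 lay above it (C2, C3, C4b, C6, C8g, C9, Cfb, Masp1, Masp2 and Vtn), and 5 had only a bound. The level of a member was also divided by the geometric mean of the hepatocyte markers in the same mouse. Among liver-secreted members this was done for the 4 with at least 10 counts in every mouse, which are by that choice members that fell less than the others, so the ratios are given as a description with no test. The mean log2 ratio was 2.10 in control and 7.76 in combination mice for C3, -0.30 and 6.05 for C4b, -5.08 and 1.89 for C8g, and -0.11 and 2.58 for Vtn.

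**Figure D3:**
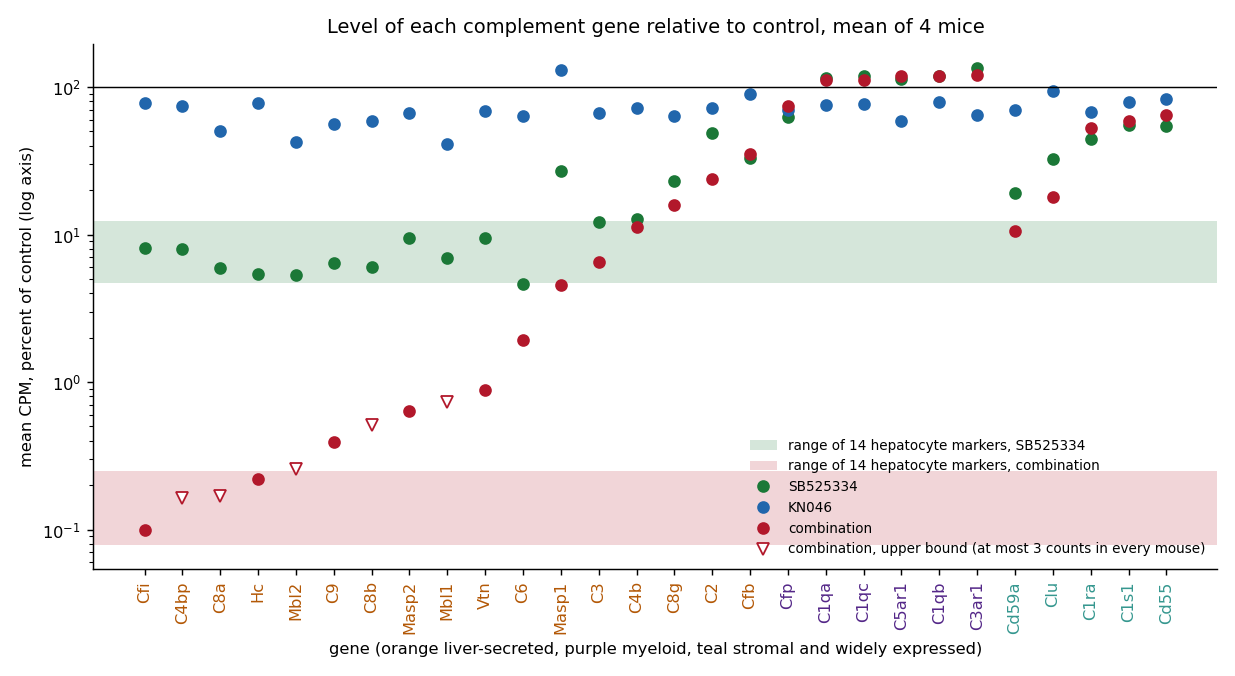
Mean CPM of each complement gene in the treated groups as a percent of its control mean (y axis, log scale), for 28 genes on the x axis sorted within each group of genes by the combination value; open triangles are upper bounds for genes with at most 3 counts in every combination mouse, and the bands are the ranges of 14 hepatocyte markers. With SB525334 most liver-secreted genes sit in or near the green band of 4.66% to 12.3%, whereas with the combination those drawn as values run from 0.0991% for Cfi to 35.0% for Cfb, and 5 are drawn as upper bounds.

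Whether SB525334 acted differently with and without KN046 was tested by the interaction of the 2 drugs. It was negative and past the threshold for 11 members, all liver-secreted (2.55% of all genes tested), and positive for 1 member, C1ra (1.73% of all genes tested). The 11 members were C8a, C8b, C9, Hc, Cfi, C4bp, Masp1, Masp2, Mbl1, Mbl2 and Vtn. Among those with more than 3 counts in some combination mouse, the interaction on the log2 scale was -5.97 for Cfi (standard error 0.72, adjusted p = 6.7e-05 from edgeR), -4.24 for Hc (0.86, adjusted p = 0.00745), -3.14 for C9 (0.63, adjusted p = 0.00653), -3.17 for Masp2 (0.88), -2.999 for Masp1 (0.57, adjusted p = 0.00494) and -2.89 for Vtn (0.60, adjusted p = 0.00908). The calls for Masp2 (adjusted p = 0.0496) and Mbl2 (adjusted p = 0.0458) were close to the threshold and were lost when a mouse was left out, in 14 of 16 cases for Masp2 (not without KN046 mouse 1 or SB525334 mouse 4, adjusted p up to 0.114) and in 13 of 16 for Mbl2 (not without KN046 mouse 1 or SB525334 mice 3 or 4, adjusted p up to 0.105). With the control pairs merged, Vtn had an adjusted p of 0.0535, Mbl2 0.111 and Masp2 0.146. The 14 hepatocyte markers had interactions from -6.55 to -4.53, all past the threshold.

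The other 6 liver-secreted members had no interaction past the threshold, with log2 values of -0.56 for C2, -0.31 for C3, 0.30 for C4b, -0.55 for C6, 0.09 for C8g and 0.24 for Cfb. The stromal and widely expressed members lay between -0.76 for Clu and 0.82 for C1ra. For C1ra (standard error 0.21, adjusted p = 0.0339 from edgeR) the call was lost when any of 8 of the 16 mice was left out (mice 3 and 4 of the control and SB525334 groups, mice 1 and 4 of the KN046 and combination groups, adjusted p up to 0.0715) and with the control pairs merged (adjusted p = 0.107). Without KN046 mouse 2, the interactions of Cfp and C5ar1 were positive and past the threshold as well (adjusted p = 0.0054 and 0.0427 from edgeR). In that fit 462 of 14061 genes tested had a positive interaction, against 242 of 13968 in the main fit. C6 and C9 lie on the same chromosome, 15, at 4756525 to 4844580 and 6474795 to 6547009, and had interactions of -0.55 and -3.14.

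**Figure D4:**
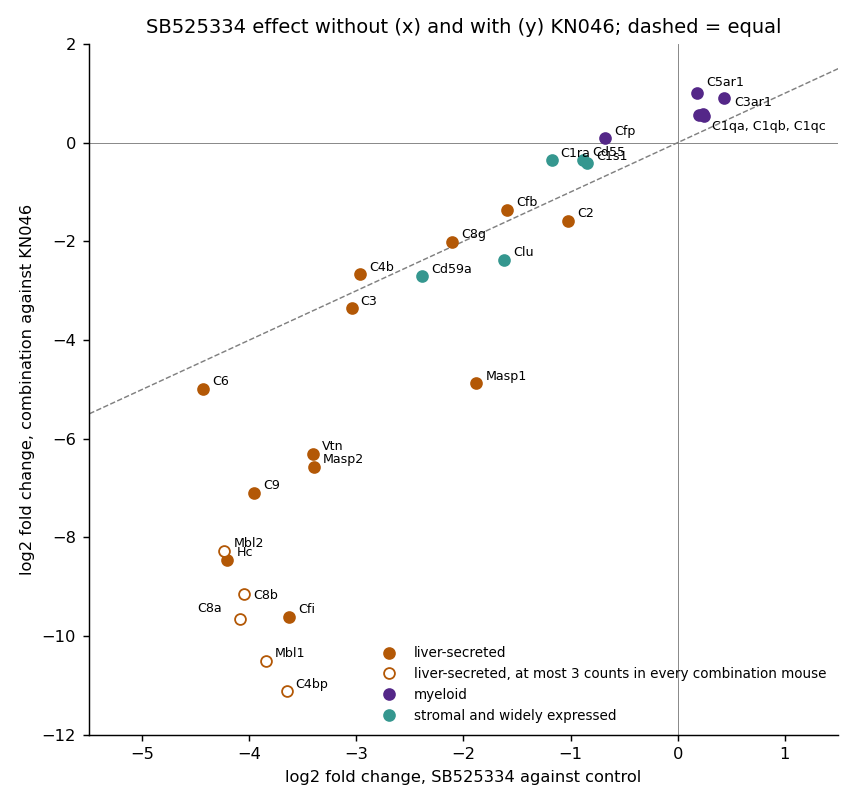
Log2 fold change of each tested complement gene for SB525334 against control (x axis) and for the combination against KN046 (y axis), which share no mice; the dashed line marks equal effects and open points are genes with at most 3 counts in every combination mouse. C3, C4b, C8g, C6, C2 and Cfb lie near the line, the 11 genes with a called negative interaction lie well below it, and the C1q chains, C3ar1 and C5ar1 lie above 0 on the y axis.

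Compared directly with SB525334 alone, the combination was lower for 11 of the 28 members and higher for 0 (3.03% of all genes tested were lower and 0.544% higher). The 11 were C8a, C8b, C9, Hc, Cfi, C4bp, Masp1, Masp2, Mbl1, Mbl2 and Vtn, and for each of them all 4 combination mice lay below all 4 SB525334 mice. C8a had 9.67, 7.60, 3.44 and 1.12 CPM with SB525334 and 0.0513, 0, 0.0546 and 0.0943 with the combination, a difference of at least 35-fold by the bound of 3 counts. C3 and Clu were lower too in every combination mouse but did not pass (log2 fold changes -0.89 and -0.85, adjusted p = 0.114 and 0.123 from edgeR). DESeq2 called both lower, and 13 members in all, where it called 523 of 16177 genes lower. C4b had a log2 change of -0.18 with a standard error of 0.31 (adjusted p = 0.972), and C1qb had 0.02 with a standard error of 0.16 (adjusted p = 0.998). In each of the 4 comparisons in which edgeR called 0 members higher (each treatment against control, and the combination against SB525334), 0 members were higher at an unadjusted p under 0.05 and 0 by DESeq2.

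Compared with KN046 alone, the combination was lower for 18 members and higher for 5 (14.5% of all genes tested were lower and 9.89% higher). The 18 were 16 of the 17 liver-secreted members, Clu and Cd59a. Without combination mouse 1, C1ra and C1s1 were lower too (adjusted p = 0.0128 and 0.00715 from edgeR). In that fit 2420 of 14098 genes tested were lower, against 2025 of 13968 in the main fit. The 5 that were higher were all myeloid: C1qa, C1qb, C1qc, C3ar1 and C5ar1. Cfp, the sixth myeloid member, which stabilises the alternative convertase, had 26.6, 76.5, 43.1 and 39.3 CPM with KN046 and 50.3, 41.4, 44.5 and 60.8 with the combination (log2 fold change 0.09, adjusted p = 0.801 from edgeR).

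The receptor genes had the larger fold changes. C5ar1, the receptor of C5a, had 8.15, 23.8, 8.72 and 20.2 CPM with KN046 and 24.5, 32.6, 30.5 and 35.2 with the combination, a log2 change of 1.01 with a standard error of 0.26 (adjusted p = 0.00903 from edgeR). C3ar1, the receptor of C3a, had 11.9, 43.4, 15.3 and 32.2 CPM against 47.7, 44.3, 46.6 and 52.9, a log2 change of 0.90 with a standard error of 0.29 (adjusted p = 0.0318). In neither gene did the groups overlap, although KN046 mouse 2 came close. C1qb had 94.2, 182, 129.6 and 146 CPM against 184, 201, 229.7 and 214, also without overlap, a log2 change of 0.59 with a standard error of 0.16 (adjusted p = 0.0165), and C1qa and C1qc had log2 fold changes of 0.56 and 0.54 (adjusted p = 0.0384 and 0.0487), with overlap. The calls for C1qb and C5ar1 held when any 1 mouse was left out. Those for C1qa and C1qc were lost without any of 6 of the 8 mice (KN046 mice 1, 3 and 4, combination mice 2, 3 and 4, adjusted p up to 0.106 and 0.122), that for C3ar1 without any of 5 of the 8 (KN046 mice 1 and 3, combination mice 2, 3 and 4, adjusted p up to 0.0862), and all 5 in a fit of these 8 mice alone (C1qb adjusted p = 0.0515 and C5ar1 adjusted p = 0.0561). With the control pairs merged, C1qa and C1qc were no longer called (adjusted p = 0.053 and 0.0669).

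Against control, none of the 6 myeloid members passed edgeR's test in any treatment. At an unadjusted p under 0.05, 1 was lower with SB525334 (Cfp), 4 with KN046 (C1qa, Cfp, C3ar1 and C5ar1) and 0 with the combination, and DESeq2 called Cfp lower with SB525334, C5ar1 lower with KN046 and 0 with the combination. Over all genes DESeq2 called 1475 of 16520, 662 of 14463 and 1530 of 15834 lower in these comparisons. The share of all genes at an unadjusted p under 0.05 is not given here. Cfp had the lowest log2 fold changes of the 6 with SB525334 and with the combination, -0.67 and -0.44. In both groups every mouse lay below every control mouse for Cfp. C5ar1 lay above every control mouse with SB525334, and C3ar1 with the combination. How many of all genes separated in these ways is not given here. C1qa, C1qb and C1qc had log2 fold changes of 0.20, 0.24 and 0.25 with SB525334, -0.41, -0.33 and -0.37 in the KN046 group, and 0.15, 0.26 and 0.17 in the combination group. The 3 genes lie next to each other on chromosome 4 between 136606009 and 136626161 and their proteins join in 1 C1q molecule. Their counts kept a nearly fixed ratio: C1qa to C1qb was 1.12 to 1.39 over the 16 mice and C1qc to C1qb was 0.719 to 0.897 (coefficients of variation 5.23% and 5.87%), while C1qb itself ranged from 94.2 to 249.7 CPM. The proteases C1ra and C1s1 had a ratio of 0.752 to 1.15 (coefficient of variation 12.9%), and C3 to C4b ranged from 2.40 in a combination mouse to 5.55 in an SB525334 mouse.

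The 10 macrophage markers, of which Lyz2 alone took 34.9% to 65.7% of the summed level, summed to 1508 to 1587 CPM in control mice, 1321 to 2036 with SB525334, 791 to 1487 with KN046 and 1481 to 2146 with the combination, and in the combination against KN046 comparison 4 of the 10 were higher (Cd68, Fcgr1, Lyz2 and Ctss) and 2 lower (Mertk and Cd163). The median log2 fold change of the 10 markers against control was -0.138 in the SB525334 group, -0.241 in the KN046 group and -0.018 in the combination group, and 0.107 for the combination against KN046, where the myeloid members had 0.22, -0.46, 0.21 and 0.573. Against control Cd163 was lower with SB525334, and Cd163 and Mertk with the combination. The ratio of C1qb to Cd68, a lysosomal macrophage protein, was 2.01 to 2.32 in control mice, 2.13 to 2.84 with SB525334, 1.26 to 2.74 with KN046 and 1.91 to 2.85 with the combination, so those ranges overlapped. The ratio of C1qb to Csf1r, the receptor of the macrophage growth factor CSF1, was 0.730 to 1.28 in control mice and 1.14 to 1.46 with SB525334, and 0.873 to 1.26 with KN046 and 1.28 to 1.71 with the combination, the last 2 without overlap. The ratio of C1qb to Adgre1, the macrophage surface protein F4/80, was 2.54 to 3.80 with KN046 and 3.64 to 5.53 with the combination, which overlapped. Markers of Kupffer cells, the resident macrophages of the liver, had another pattern. The 6 genes summed to 163 to 332 CPM in control mice, 9.95 to 25.1 with SB525334, 53.7 to 393 with KN046 and 1.80 to 13.1 with the combination. Of the 6, 5 were lower than control with SB525334 and with the combination (Clec4f, Timd4, Cd5l, Marco and Vsig4), and Folr2 did not pass. Vsig4, itself a complement receptor that binds C3b, had a log2 fold change of -2.99 with SB525334 (adjusted p = 2.54e-05 from edgeR) and -7.34 with the combination (adjusted p = 1.85e-08). The part of Kupffer cells and other macrophages in the C1q level was not tested.

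Of 30 further complement genes listed, 25 were tested. In the SB525334 group 14 of them were lower and 0 higher, in the KN046 group 2 were lower and 0 higher, and in the combination group 14 were lower and 0 higher. Of all genes tested, 9.22%, 2.40% and 9.74% were lower and 0.394%, 1.60% and 1.37% higher. At an unadjusted p under 0.05 from edgeR, 0 of the 25 were higher with SB525334, 2 with KN046 (Colec10 and Colec11) and 1 with the combination (Cr2), and DESeq2 called 0 of them higher in each. Over all genes DESeq2 called 125 of 16520, 588 of 14463 and 350 of 15834 higher. The share of all genes at an unadjusted p under 0.05 is not given here. Colec10, Colec11 and Cr2 are named after their values were seen. The median log2 fold changes were -1.73, -0.32 and -1.59. The 3 lowest fitted values with SB525334 were those of Fcnb, the ficolin of neutrophils and monocytes, Cpn2, a subunit of the carboxypeptidase that inactivates C3a and C5a, and Cfhr4, a factor H related gene. The log2 fold changes of Cpn2 and Cfhr4 were -4.20 and -4.13, and since Fcnb had at most 1 count with SB525334 its place among the 3 is not known. Fcnb had 1.62, 1.47, 1.07 and 1.41 CPM in control mice, 0, 0, 0.0430 and 0 with SB525334, 0.107, 0, 0 and 0 with KN046, and 0.103, 0.0552, 0 and 2.03 with the combination. It was therefore at least 10.8-fold lower than control with SB525334 and at least 8.84-fold lower with KN046 by the bound of 3 counts, and combination mouse 4 stood alone. In that mouse the 8 neutrophil markers summed to 172 CPM, against 5.90 to 20.1 CPM in the other 3 combination mice and 117 to 134 CPM in control mice, and their part in the Fcnb level was not tested. Cpn2 and Cfhr4 were at least 317-fold and 134-fold lower than control with the combination. Itgb2, the common chain of the complement receptors CR3 and CR4, was the other gene lowered by KN046, with a log2 change of -0.87 with a standard error of 0.24 (adjusted p = 0.0485 from edgeR), and it was higher with the combination than with KN046 (log2 fold change 0.76, adjusted p = 0.0281). The KN046 calls of Itgb2 and Fcnb were lost without any of 7 of the 8 mice (all but KN046 mouse 2, adjusted p up to 0.171 and 0.077 from edgeR) and with the control pairs merged (adjusted p = 0.248 and 0.196), and the rise of Itgb2 without any of 4 of the 8 (KN046 mice 1 and 3, combination mice 1 and 4, adjusted p up to 0.106). Itgb2 had 112 and 123 CPM in control mice 1 and 2 and 75.4 and 76.4 in mice 3 and 4.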

How the data were processed

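The 16 tumor libraries fell into 4 groups of 4 mice (control, SB525334, KN046, both drugs), read from the sample titles. The titles do not name what control mice received, which the paper calls PBS or vehicle. According to the submitters' processing notes, the authors used cutadapt 2.7, HISAT2 2.2.1, HTSeq 2.0.4 and DESeq2 1.38.3. Reads were aligned to GRCm39, and the settings for strand and for reads on several genes are not given in the sources used here. The deposited values used here are the authors' raw counts per gene. The deposited normalized tables were not used. Symbols and coordinates came from GENCODE M39, which held 21770 of the 21959 identifiers.

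The main test was the quasi-likelihood test of edgeR 4.0.16, fitted to all 16 mice with 1 coefficient per group after filterByExpr (minimum count 10) and TMM scaling, with p-values adjusted by the Benjamini-Hochberg method over the 13968 genes tested, with a threshold of 0.05. The biological coefficient of variation was 20.1%. Each treated group was compared with control and the combination with each single drug, and the interaction of the 2 drugs was tested. The fits were tested on simulated data. The total count per mouse, 18368994 to 23877131, sets the precision: a gene with at most 3 counts in every mouse of a group is given as a bound against 3 counts. Ratios to hepatocyte markers, planned with an exact two-sided permutation test, are given with no test, since the members with enough counts to enter were those that fell less. The tables and figures were made with Python 3.11.15, scipy 1.17.1 and matplotlib 3.10.9.

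The members, the gene groups, the further complement genes and the marker lists were chosen with earlier results of these data known. All 30 members are named, with near copies of members, the 3 largest called rises and the 3 largest called falls among the further complement genes in each comparison with control (no rise was called), and list markers. Vsig4 is named as a list marker. A gene that the rule names is not reported here. Levels of C4a, Cfhr3 and the marker G6pc were not analysed here. The alternatives were DESeq2, RLE scaling, library size alone, other filters on low counts, the groups of a comparison alone, the replicate number as a block, merged control pairs, the study's thresholds and each mouse left out. Mice with the same number deviated from their group means with correlations of -0.370 to 0.407, so the numbers were not taken as pairs. Whether the mice of a group came from separate cages or batches is not labelled.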

Additional observations from a re-analysis of the deposited data

Results flagged for a closer look

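For 3 of the 109 sets of 4 mice, 1 mouse stood far from the other 3 of its group, where chance alone gives about 1 in 20, or 5.45 of 109. C2 had 0.407 CPM in SB525334 mouse 1, against 1.19 to 1.25 CPM in the other 3 mice. Cd55 had 12.5 CPM in SB525334 mouse 1, against 5.60 to 5.90 CPM. Cd59a had 1.32 CPM in combination mouse 4, against 0.437 to 0.552 CPM.

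The effect of SB525334 differed with and without KN046 for 12 members, by the interaction term of the edgeR fit. On the log2 scale the interaction was -2.89 for Vtn, -3.14 for C9, -2.999 for Masp1, -4.24 for Hc, -5.97 for Cfi and -3.17 for Masp2, and 0.82 for C1ra. For 5 members with at most 3 counts in every combination mouse the fitted interaction is no bound, since it depends on the small count that the fit adds: -4.04 for Mbl2, -7.47 for C4bp, -5.10 for C8b, -5.57 for C8a and -6.65 for Mbl1. The part of hepatocyte content in these values was not tested.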

How the results depend on the processing

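No called member reversed its direction under any alternative. Of 1544 values of the 86 called pairs of member and comparison, 1452 kept their direction and side of the threshold and 92 lost the call. Counts of members lower with SB525334, the combination, the combination against KN046 or against SB525334, and with a negative interaction stayed within 1.5 times in every alternative run. For KN046 against control, the count of lower members went from 1 to 3 with DESeq2 and 2 with the study's threshold (unadjusted p under 0.05 and a fold above 2), to 0 with library size alone, the groups alone, the replicate block and the merged control pairs, and to 0 to 10 with a mouse left out (10 without KN046 mouse 2). Over all genes, 335 of 13968 were lower in the main fit and 662 of 14463 with DESeq2. The number was 165 of 13968 with library size alone, 63 of 13700 with the groups alone and 354 of 13968 with the replicate block. With merged pairs it was 0 of 14241, so the loss there held for all genes. With a mouse left out it ran from 11 of 14091 to 1173 of 14061. For the combination against KN046, the count of higher members went from 5 to 0 with the groups alone, 3 with merged pairs, 1 with the study's threshold and 2 to 5 with a mouse left out. Over all genes, 1381 of 13968 were higher in the main fit, 508 of 13421 with the groups alone and 1174 of 14241 with merged pairs. With a mouse left out the number ran from 759 of 14091 to 1895 of 14098. The count of positive interactions went from 1 to 0 with library size alone, the replicate block, merged pairs and the study's threshold, and to 0 to 3 with a mouse left out. Over all genes, 242 of 13968 were positive in the main fit, 171 with library size alone, 219 with the replicate block and 93 of 14241 with merged pairs. With a mouse left out the number ran from 128 of 14089 to 462 of 14061. The median of the liver-secreted members moved to -6.235 with C1ra, C1s1 and Clu counted among them and to -8.81 without C2, C3, C4b and Cfb for the combination against control, and to -5.64 and -8.27 for the combination against KN046. For the interaction it moved to -4.04 without those 4 genes. The causes were not tested, apart from the medians, which differ in the genes they cover. The planned exact permutation test of ratios to hepatocyte markers passed for 14 of 14 members and for 0 of 14 with a mouse left out, where 3 against 4 mice cannot reach the threshold, and nothing is drawn from it. The replicate numbers do not pair the mice, and the replicate block changed no count beyond those given. Depth limits the members that fell to at most 3 counts, whose folds are bounds.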

Other observations

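The other marker lists describe the tissue around these genes. Of the 8 hepatic stellate cell markers, 1 was lower than control with SB525334 (Rgs5), 0 passed edgeR's test with KN046 (2 at an unadjusted p under 0.05, 1 by DESeq2), and 4 were lower with the combination (Lrat, Reln, Hgf and Rgs5), with median log2 fold changes of -0.391, 0.461 and -0.816. Reln had 7.96 to 15.6 CPM in control mice and 0 to 0.518 with the combination, whereas Ecm1, which took 85.8% to 93.0% of the summed level of the list, had 773 to 858 and 865 to 895 CPM. Of the 5 mesothelial markers 0 passed edgeR's test in any of these comparisons (1, 1 and 3 at an unadjusted p under 0.05, and 1, 0 and 0 by DESeq2), with medians of -0.84, 0.133 and -0.909. Msln took 94.1% to 99.4% of their summed level, and Lrrn4 had 0 counts in every combination mouse and in control mice 3 and 4. Endothelial markers summed to 84.9 to 225 CPM in control mice, with mice 1 and 2 apart from mice 3 and 4, and to 32.7 to 73.6, 154 to 201 and 79.1 to 100 CPM in the treated groups, and all 6 were lower than control with SB525334 and 2 with the combination (Tek and Clec4g). T cell markers summed to 24.7 to 31.5 CPM in control mice, 13.8 to 24.8 with SB525334, 5.64 to 16.7 with KN046 and 20.3 to 42.0 with the combination, and 4 of the 5 were lower than control with KN046 (Cd3e, Cd3d, Cd3g and Cd8a). These KN046 calls were lost with the control pairs merged, where 0 of all 14241 genes tested were called. Markers of B cells and follicular dendritic cells were at 7.76 to 10.5, 0.559 to 2.51, 3.01 to 12.0 and 2.02 to 56.0 CPM, with the 2 highest values of all mice in combination mouse 4 (56.0 CPM) and combination mouse 1 (18.2 CPM). The 6 markers did not move together. The chemokine Cxcl13 was the only one called lower with SB525334, with 124 to 136 counts in control mice and at most 1 with SB525334. The B cell gene Cd79a had 11 to 29 and 3 to 24 counts there. With the combination Cxcl13 was lower than control, and Cd79a and Cd79b were higher. The part of these cell types in the complement values was not tested.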
